A study of Mus musculus with 4 samples.

Results

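The prostaglandin synthesis and receptor genes described here are 8 genes, chosen by symbol from the feature lists of 4 spatial transcriptomes of the injured mouse Achilles tendon. These are Ptgs1, Ptgs2, Ptges, Ptgis, Ptgds, Ptger2, Ptger4 and Hpgd, 8 of the 32285 genes counted, and all 8 were present in every section's table. Visium slides bind RNA from a frozen tissue section at an array of spots with known positions, and the tables count unique molecular identifiers (UMIs), which stand for single captured RNA molecules, for each gene in each spot. Sections F592A 1 and F592A 2 came from TrkA F592A mice under the treatment 1NMPP1, and sections WT 1 and WT 2 came from TrkA WT mice labelled as control. TrkA is the nerve growth factor receptor kinase, and the F592A substitution makes the kinase sensitive to the inhibitor 1NMPP1. All mice were 12 weeks old, of both sexes, and all tissue was taken 14 days after a punch injury of the left tendon. All received buprenorphine before surgery and isoflurane during it. Genotype and drug changed together, it is not stated whether WT animals also got 1NMPP1, and sections are not tied to single animals among the 4 pooled mice per genotype. Every p-value is therefore set by how sections vary, a spread that may be technical. A point substitution does not show in gene counts, so the genotype could not be checked.

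Prostaglandins are lipid mediators made from arachidonic acid, which phospholipases release from membranes. The cyclooxygenases, Ptgs1 and the inducible Ptgs2, turn it into prostaglandin H2, and terminal synthases then make the single prostaglandins: Ptges makes prostaglandin E2, Ptgis makes prostacyclin and Ptgds makes prostaglandin D2. Prostaglandin E2 acts through receptors that include Ptger2 (EP2) and Ptger4 (EP4), and Hpgd, the 15-hydroxyprostaglandin dehydrogenase, begins its breakdown. In injured tendon, prostaglandin E2 is known as a mediator of inflammation and pain.

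The sections held 30154873 to 43957617 UMIs over 2027 to 3047 tissue spots, and the 13 spots below 500 UMIs were left out. The spots were clustered without the 8 genes into 14 regions, of which 13 were joined by their leading genes to a tissue class, and a class is a set of small tissue areas that can hold several cell types. The makeup of the sections differed: skin-led spots numbered 920 and 1067 in F592A 1 and F592A 2, against 278 and 209 in WT 1 and WT 2. Of the 908 spots of a connective tissue region led by Xist, Kera and Matn4, 903 lay in WT 2. A region led by Gm42418, Sox9, Mmp14 and Col27a1, with Ddx3y also among its leading genes, could not be given a class. It held 656 and 689 spots of the F592A sections, against 7 and 38 of the WT sections. Xist and Ddx3y are sex-linked, sections are not tied to single animals, and the part of sex in the group differences was not tested. Tenocyte markers (Tnmd, Scx, Mkx, Kera, Fmod, Chad, Thbs4) were present in every section and summed to 3823 and 3468 counts per 1000000 UMIs (CPM) in F592A 1 and F592A 2, against 4346 and 5503 CPM in WT 1 and WT 2. A barcode marks an array position, so the 3327 of 4386 barcodes found in more than 1 section are shared by design.

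Ptgs2, the inducible cyclooxygenase, was the member that differed most between the groups. It had 1276 and 1049 UMIs in F592A 1 and F592A 2, against 224 and 174 UMIs in WT 1 and WT 2. As a level, that was 29.0 and 28.3 CPM of the section's sum in the F592A sections, against 5.22 and 5.77 CPM in the WT sections. The group means were 28.7 ± 0.53 CPM in the F592A sections and 5.49 ± 0.39 CPM in the WT sections (SD, n = 2 each), so the groups lay far apart and the sections of each group close together.

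Because Ptgs2 carried the main difference, the promoters of both cyclooxygenase genes are shown, from 250 bases before to 50 bases after the start that RefSeq gives (build GRCm38.p6, forward strand of each gene). Ptgs2 lies on chromosome 1, with the window chr1:150099781-150100080, and Ptgs1 on chromosome 2, with the window chr2:36230176-36230475, both on the plus strand. The Ptgs1 start in this table lies inside the gene's span. Capitals mark matches to the letters of 5 motifs, searched on both strands: the cyclic AMP response element core TGACGT, the E-box CACGTG, the C/EBP site TTGCNNAA, the AP-1 site TGANTCA and the TATA box TATAAA.
Ptgs2: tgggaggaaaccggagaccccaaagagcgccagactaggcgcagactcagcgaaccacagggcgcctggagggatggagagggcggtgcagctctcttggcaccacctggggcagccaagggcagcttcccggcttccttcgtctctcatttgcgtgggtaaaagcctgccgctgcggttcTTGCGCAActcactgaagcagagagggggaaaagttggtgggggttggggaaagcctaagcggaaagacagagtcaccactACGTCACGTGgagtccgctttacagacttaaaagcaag
Ptgs1: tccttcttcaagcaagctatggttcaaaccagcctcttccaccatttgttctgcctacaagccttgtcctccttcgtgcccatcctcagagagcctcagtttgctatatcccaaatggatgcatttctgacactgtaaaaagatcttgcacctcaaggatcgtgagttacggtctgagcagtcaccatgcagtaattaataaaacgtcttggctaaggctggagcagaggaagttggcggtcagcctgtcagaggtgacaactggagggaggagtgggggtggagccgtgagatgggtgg
The Ptgs2 window held a C/EBP match that began 69 bases before the start, and a cyclic AMP response element core and an E-box that overlapped by their CA letters and began at bases 13 and 17 after it. The Ptgs1 window held no match to these 5 motifs. Of the 32851 RefSeq promoters of the same length, 7.51% held the cyclic AMP response element core, 7.15% the E-box, 10.8% the C/EBP letters, 7.81% the AP-1 letters and 13.6% the TATA box. Of the 7 members with a promoter in the table, the core and the E-box were found in Ptgs2 alone, the C/EBP letters in Ptgs2 and Ptger2, the AP-1 letters in Ptgds and the TATA box in Hpgd. The NF-kB site, searched by its usual 10-letter form, was found in Ptgds and in 8.46% of all promoters. Letters more than 250 bases before the start were not searched, and positions count from the RefSeq start alone. A motif without a match is therefore absent from the window, which does not show that the gene lacks it. A match is a description of letters and no measure of binding.

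In whole sections, the fitted difference of Ptgs2 was a log2 fold change of 2.36 ± 0.13 (SE, 2 sections against 2), with an adjusted p of 0.0133 in edgeR's quasi-likelihood test over 16347 genes, of which 13 (0.0795%) were called. By p it ranked 3 among these genes. Ptgs2 rose in F592A sections by this test, and it was the 1 of 8 members that passed. The call rests on both F592A sections: without F592A 1 the log2 fold change was 2.31 with an adjusted p of 0.273, and without F592A 2 it was 2.41 with an adjusted p of 0.299, and edgeR then called 0 genes of the whole table, with 1441 and 835 genes at an unadjusted p under 0.05 (DESeq2 was not run on these subsets). Without WT 1 or WT 2 it remained called, with 349 and 390 genes called in all. More cells with Ptgs2 RNA and more RNA per cell cannot be told apart in spot sums.

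**Figure D1:**
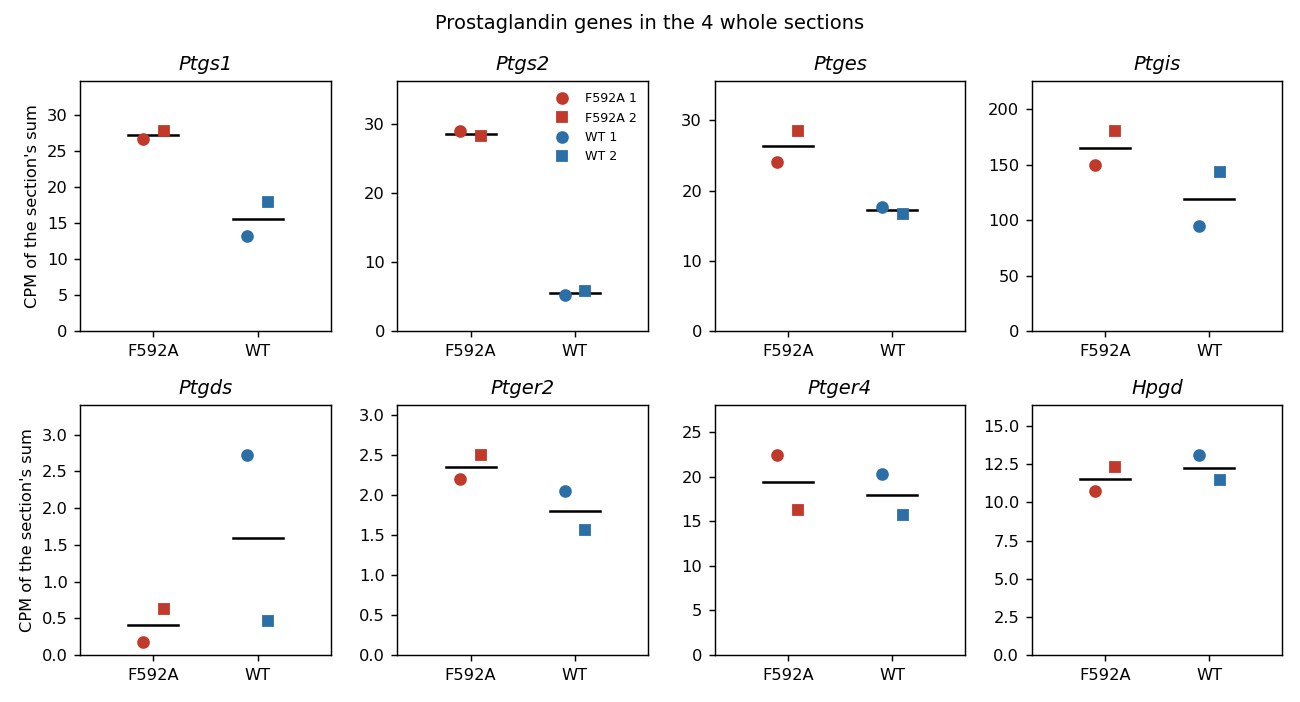
Each panel plots the level of 1 gene in CPM of the section's UMI sum; red points are the F592A 1NMPP1 sections, blue points the WT control sections, circles section 1 and squares section 2, and black bars the group means. Ptgs2 lies at 29.0 and 28.3 CPM in the F592A sections and at 5.22 and 5.77 CPM in the WT sections, while Ptger4 and Hpgd overlap.

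Ptgs1, the constitutive cyclooxygenase, had 26.7 and 27.7 CPM in F592A 1 and F592A 2, against 13.2 and 17.9 CPM in WT 1 and WT 2. The groups did not overlap, and the log2 fold change was 0.78 ± 0.17 (SE) with an adjusted p of 0.224 in edgeR's test. Ptges, the prostaglandin E synthase, had 24.1 and 28.4 CPM in the F592A sections, against 17.7 and 16.6 CPM in the WT sections. Its log2 fold change was 0.59 ± 0.11 (SE), with an adjusted p of 0.196 in edgeR's test. Neither gene passed this test, whereas DESeq2, which called 418 of the 16347 genes (2.56%), called both, with adjusted p of 0.0183 for Ptgs1 and 0.022 for Ptges.

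Ptgis, the prostacyclin synthase, had 149.8 and 180.3 CPM in F592A 1 and F592A 2, against 95.04 and 143.2 CPM in WT 1 and WT 2. The groups did not overlap, but WT 2 lay closer to F592A 1 than to WT 1, and the log2 fold change was 0.44 ± 0.22 (SE) with an adjusted p of 0.52 in edgeR's test. Leaving out WT 2 brought Ptgis to a log2 fold change of 0.81 (adjusted p = 0.0343, edgeR) and Ptgs1 to 1.05 (adjusted p = 0.0101, edgeR), with 2.31% of genes then called. Leaving out WT 1 instead brought Ptgis to 0.14 (adjusted p = 0.74, edgeR) and Ptgs1 to 0.55 (adjusted p = 0.102, edgeR), so neither passed, with 2.1% of genes called.

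Ptgds, the prostaglandin D synthase, was nearly absent, with 8 and 23 UMIs in F592A 1 and F592A 2, against 117 and 14 UMIs in WT 1 and WT 2. As a level it was 0.182 and 0.62 CPM in the F592A sections, against 2.73 and 0.464 CPM in the WT sections, so the groups overlapped and WT 1 alone was high. The log2 fold change of -2.06 ± 0.91 (SE) did not pass (adjusted p = 0.463, edgeR), and without WT 2 it was -2.79 with an adjusted p of 0.0427. That fit sets both F592A sections against WT 1 alone.

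The receptors and the degrading enzyme differed little. Ptger2 (EP2) had 2.21 and 2.51 CPM in F592A 1 and F592A 2, against 2.05 and 1.56 CPM in WT 1 and WT 2, from 97 and 93 UMIs against 88 and 47 UMIs. Its log2 fold change was 0.36 ± 0.26 (SE, adjusted p = 0.647, edgeR). Ptger4 (EP4) had 22.4 and 16.3 CPM in the F592A sections, against 20.3 and 15.7 CPM in the WT sections. The spread within each group exceeded the difference between them, and the log2 fold change was 0.09 ± 0.20 (SE, adjusted p = 0.905, edgeR). Hpgd had 10.7 and 12.3 CPM in the F592A sections, against 13.1 and 11.4 CPM in the WT sections, with a log2 fold change of -0.12 ± 0.13 (SE, adjusted p = 0.78, edgeR).

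Both F592A sections lay above both WT sections for 5 of the 8 members, Ptgs1, Ptgs2, Ptges, Ptgis and Ptger2, and for 23.4% of all genes tested. The median log2 fold change of the 8 members was 0.40, against 0.00 over all genes. The smallest p that an exact permutation of 2 sections against 2 can give is 0.3333, so that order is a description.

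The spread of Ptgs2 over the sections was uneven. A Ptgs2 UMI was found in 17.8% of spots in F592A 1 (exact 95% interval 16.4 to 19.2%) and 18.01% in F592A 2 (16.6 to 19.5%), against 5.03% in WT 1 (4.28 to 5.86%) and 6.52% in WT 2 (5.49 to 7.69%). These intervals cover counting error only. The median depth was 5468 and 6540 UMIs per spot in F592A 1 and F592A 2, against 5974 and 7932 in WT 1 and WT 2. With every spot thinned to 2000 UMIs and shallower spots left out, the expected share was 3.94% and 3.85% in the F592A sections, against 0.749% and 1.251% in the WT sections, so the order held at equal depth.

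The fewest spots that together held 50% of the section's Ptgs2 UMIs were 76 of 2834 in F592A 1 and 95 of 2748 in F592A 2, against 41 of 3043 in WT 1 and 45 of 2024 in WT 2. The richest spot had 33 and 23 UMIs in the F592A sections, against 11 and 4 UMIs in the WT sections. Of spots with a Ptgs2 UMI, 83.3% and 83.6% in F592A 1 and F592A 2 touched another such spot, against 64.7% and 60.6% in WT 1 and WT 2. Of the other spots, 36.9% and 38.3% touched a Ptgs2 spot in the F592A sections, against 16.6% and 24.3% in the WT sections. Ptgs2 spots thus touched each other more often than other spots touched them in all 4 sections. Depth also varies over the array, and its part in this was not tested.

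**Figure D2:**
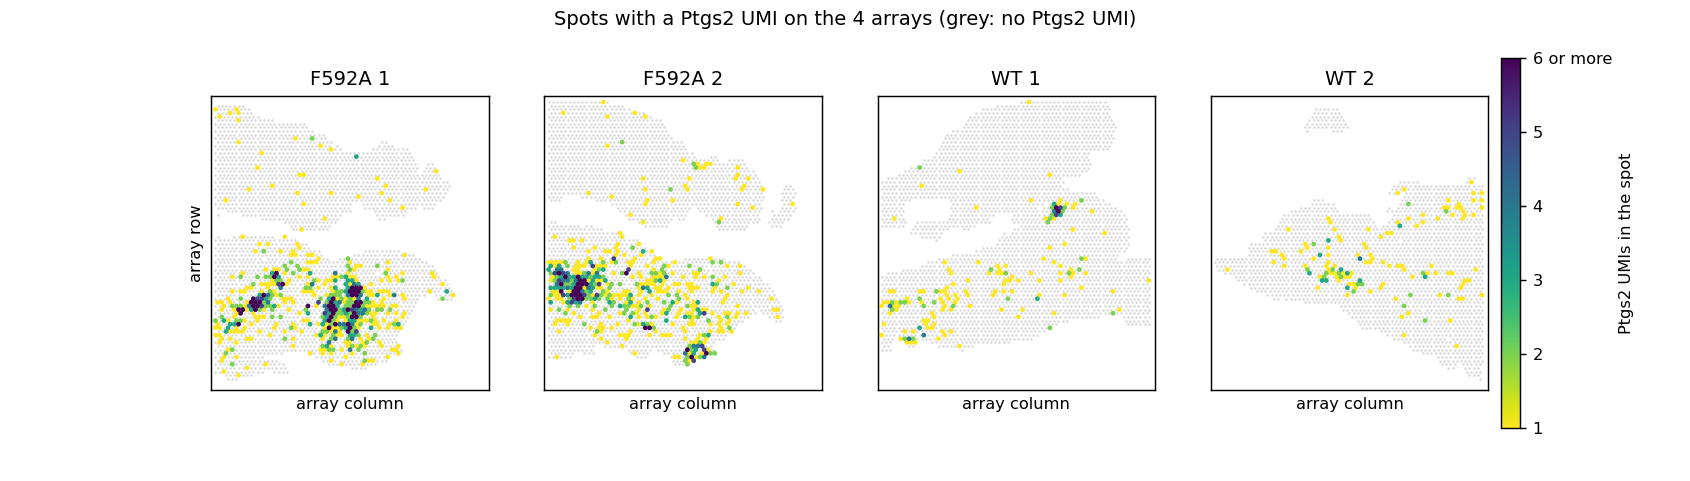
The 4 Visium arrays by array column and row, with every kept spot in grey and spots with a Ptgs2 UMI coloured by their UMI count on a scale that ends at 6 or more. The 504 and 495 Ptgs2 spots of F592A 1 and F592A 2 include spots of up to 33 and 23 UMIs, whereas the 153 and 132 Ptgs2 spots of WT 1 and WT 2 reach 11 and 4 UMIs.

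By tissue, Ptgs2 had its highest mean over sections in connective tissue among the named classes, and there the F592A sections lay above the WT sections. It had 32.4 and 35.2 CPM of the class's sum in F592A 1 and F592A 2, against 12.2 and 6.61 CPM in WT 1 and WT 2, from 854 and 562 UMIs against 98 and 130 UMIs. The log2 fold change was 1.87 ± 0.29 (SE) with an adjusted p of 0.13 in edgeR's test, in which 0 of 14508 genes (0%) were called, 1757 had an unadjusted p under 0.05 and DESeq2 called 252, among them Ptgs2 (adjusted p = 3.84e-06). Different clusters hold this class: the region led by Ecm1, C4b and Prelp made up nearly all of it in the other 3 sections, and the region led by Xist and Kera most of it in WT 2. In the Ecm1 region alone Ptgs2 had 32.4 and 35.2 CPM in the F592A sections, against 12.2 and 5.81 CPM in the WT sections, and the log2 fold change was 1.90 ± 0.31 (SE, adjusted p = 0.124, edgeR). The main class held 342 and 219 spots in F592A 1 and F592A 2, against 130 and 1202 in WT 1 and WT 2. Drawn from panel shares it held 1237 and 1274, against 1007 and 1280, and from a finer clustering 621 and 574, against 220 and 715. Panel shares left 29 and 18 F592A spots unnamed, and the part of spots moved into the class was not tested. With the unnamed region joined to the main class, a fit added after seeing the data, 0 of 14910 genes were called. Ptgs2 passed with panel shares and with the finer clustering. Its log2 fold changes were 2.49 and 2.31, with adjusted p of 0.0432 and 0.0412 in edgeR's test. It also passed without WT 1, at 2.35 (adjusted p = 0.00177), and without WT 2, at 1.41 (adjusted p = 0.0305), both in edgeR's test. Panel shares also gave a cartilage and bone class, in which Ptgs2 had 61.6 and 44.3 CPM in F592A 1 and F592A 2, against 14.2 and 6.1 CPM in WT 1 and WT 2, above the connective tissue of that definition in 3 of 4 sections. In the main connective tissue class it did not pass without F592A 1, at 1.91 (adjusted p = 0.203), or without F592A 2, at 1.80 (adjusted p = 0.168), in the same test. The 7 neutrophil markers summed in connective tissue to 50.5 and 32.9 CPM in the F592A sections, against 18.5 and 16.9 CPM in the WT sections, and the 7 mast cell markers to 20.8 and 83.2 CPM, against 168.2 and 103.3 CPM. The 7 macrophage markers summed there to 1655 and 1827 CPM, against 1395 and 1616 CPM, with 1 at an unadjusted p under 0.05. The 7 tenocyte markers summed there to 4437 and 5098 CPM in the F592A sections, against 7472 and 5903 CPM in the WT sections, with 5 at an unadjusted p under 0.05. The 7 keratinocyte markers summed to 104.3 and 121.9 CPM, against 347 and 204.4 CPM, with 6 at such a p. Their part in the Ptgs2 difference was not tested.

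In skin, Ptgs2 had 19.9 and 20.6 CPM in F592A 1 and F592A 2, against 3.38 and 5.32 CPM in WT 1 and WT 2, but the WT values rest on 8 and 4 UMIs. The log2 fold change was 2.46 ± 0.39 (SE) with an adjusted p of 0.212 in edgeR's test, in which 0 of 12914 genes (0%) were called, 1041 had an unadjusted p under 0.05 and DESeq2 called 61, among them Ptgs2 (adjusted p = 0.0491). Within skin the level was highest in the region led by Fa2h and Elovl6, with 33.2 and 26.3 CPM in the F592A sections, against 1.98 and 8.92 CPM, or 1 UMI each, in the WT sections. In the epidermal region led by Krt77 and Lor, F592A 1 and F592A 2 had 13.1 and 12.7 CPM from 20 and 26 UMIs, against 3 UMIs in WT 1 and 0 in WT 2, too few to read an order.

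Muscle held the least Ptgs2 of the 3 classes tested, with 8.4 and 4.24 CPM in F592A 1 and F592A 2, against 2.06 and 3.84 CPM in WT 1 and WT 2. The difference between F592A 2 and WT 2 was small, and the log2 fold change was 1.41 ± 0.49 (SE) with an adjusted p of 0.0826 in edgeR's test. Of 13459 genes, 3281 (24.4%) were called in muscle, a share that fell to 0 genes without F592A 2, where 3393 had an unadjusted p under 0.05. None of the 7 members tested was among the called genes. Of these members 2 had an unadjusted p under 0.05, beside 5321 of the 13459 genes in the fit of all 4 sections. The fibroblast markers of wounds (Postn, Tnc, Cthrc1, Col1a1, Col3a1, Fap) summed there to 26160 and 18010 CPM in the F592A sections, against 63850 and 68930 CPM in the WT sections. The keratinocyte markers summed there to 640.9 and 1658 CPM, against 359.1 and 127.6 CPM. Their part in the members' values was not tested. Over all genes in muscle 1913 were called higher and 1368 lower, and with panel shares 26 were called in all. The counts of the pathway lists stand beside that share of 24.4%. Called genes were 2 higher and 2 lower of 18 other prostanoid genes tested, and 4 higher of 10 phospholipases. In the lipoxygenase branch 3 of 9 were higher and 1 lower, and among cyclooxygenase regulators 4 of 12 were higher and 1 lower. Of 14 immediate early genes 4 were higher, and of 8 hypoxia genes 3 were higher.

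The unnamed region, almost confined to the F592A sections, had the highest level, with 40.6 CPM in each of F592A 1 and F592A 2 from 281 and 300 UMIs, against 1 UMI in the 38 spots of WT 2. Without this region the whole-section difference was 2.21 ± 0.14 (SE) on the log2 scale, with an adjusted p of 0.0415 in edgeR's test. With the classes of all sections given the same weights (54.3% connective tissue, 32.2% muscle, 11.3% skin and 2.27% vessel and blood), the level was 23.1 and 23.0 CPM in the F592A sections, against 7.73 and 5.81 CPM in the WT sections, a ratio of 3.4. The ratio was lower than the 5.2 of plain sums. Without skin-led spots and without muscle-led spots Ptgs2 stayed called in edgeR's test, at log2 fold changes of 2.46 and 2.15.

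Vessel and blood spots had few Ptgs2 UMIs, with 14 and 1 in F592A 1 and F592A 2, against 8 and 4 in WT 1 and WT 2. In adipose spots there were 3 and 7 UMIs in the F592A sections, against 0 in the 24 spots of WT 1. Nerve-led spots lay almost all in WT 1, where Ptgs2 had 6.65 CPM from 69 UMIs. That region was mixed, since Ptx3, Krt2, Ibsp and Flg were among its leading genes beside the myelin genes, and its 639 spots in WT 1 became 56 at Leiden resolution 1.0 and 158 with panel shares. With panel shares Ptgs2 had 2.53 CPM there, from 3 UMIs. Over the 6 named classes, ordered by the mean of the sections, the level ran from connective tissue over vessel and blood, skin, adipose and muscle to nerve. The ranges over sections overlapped between all neighbours in that order.

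Of the Ptgs2 UMIs in the F592A sections, 60.9% lay in connective tissue, which held 52.2% of all UMIs, and 25% in the unnamed region, which held 17.7%. In the WT sections 57.3% lay in connective tissue, which held 38.0% of all UMIs. Both F592A sections lay above both WT sections in connective tissue, in muscle and in skin for Ptgs2 and Ptger2, the latter from 3 and 1 UMIs in WT skin. In all, that order was seen for 4 of 8 members in connective tissue (27.7% of tested genes), 2 of 8 in muscle (21.4%) and 4 of 8 in skin (13.4%). With panel shares the groups overlapped in muscle for both genes. Ptgs2 then had 6.82 and 2.99 CPM in F592A 1 and F592A 2, against 0.9615 and 3.36 CPM in WT 1 and WT 2. The filter on low counts removed Ptgds from all 3 class tests and Ptger2 from that of skin, so 7, 7 and 6 members were tested. In the main classes, both F592A sections lay below both WT sections in muscle for Ptgds and Ptger4, and for 51.8% of tested genes there. The same was seen in connective tissue for Ptgds, from 0 to 7 UMIs a section.

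**Figure D3:**
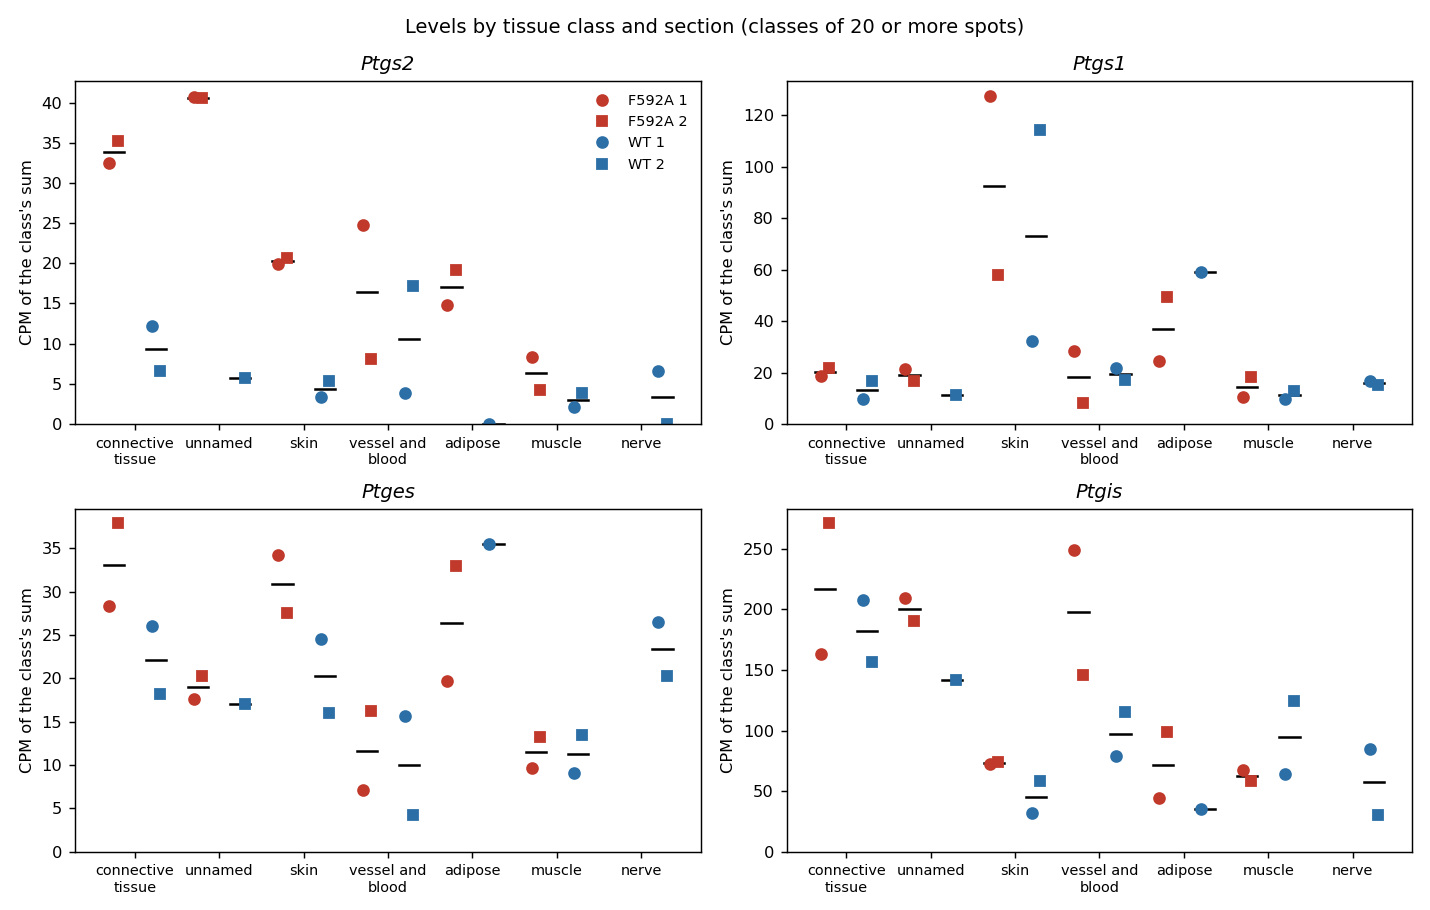
Levels of Ptgs2, Ptgs1, Ptges and Ptgis in CPM of the class's UMI sum, for classes with at least 20 spots in a section; red points are the F592A 1NMPP1 sections, blue points the WT control sections, and black bars the group means. Ptgs2 is at 32.4 and 35.2 CPM in connective tissue of the F592A sections, against 12.2 and 6.61 CPM in the WT sections, while the highest Ptgs1 levels lie in skin.

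Ptgs1 had its highest mean level over sections in skin, with a range that overlapped that of adipose spots. Skin held 127.4 and 58.1 CPM in F592A 1 and F592A 2, against 32.1 and 114.4 CPM in WT 1 and WT 2, so the groups overlapped, with a log2 fold change of 0.56 ± 0.58 (SE, adjusted p = 0.856, edgeR). The epidermal region led by Krt77 and Lor had the most, with 212.6 and 138.8 CPM in the F592A sections, against 175.4 and 329.1 CPM in the WT sections. Adipose spots had 24.7 and 49.4 CPM in F592A 1 and F592A 2, against 59.2 CPM in WT 1, from 5 to 18 UMIs a section. The level was 18.5 and 21.6 CPM in connective tissue of F592A 1 and F592A 2, against 9.79 and 16.6 CPM in WT 1 and WT 2. In muscle it was 10.6 and 18.2 CPM in the F592A sections, against 9.58 and 12.8 CPM in the WT sections.

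Skin held 40.2% of the Ptgs1 UMIs of the F592A sections, where skin gave 13.6% of all UMIs, and 14.6% in the WT sections, where skin gave 4.27% and connective tissue and muscle held 36.7% and 27.8% of the Ptgs1 UMIs. With equal class weights the groups overlapped for Ptgs1, at 28.5 and 24.3 CPM in F592A 1 and F592A 2, against 12.5 and 26.4 CPM in WT 1 and WT 2. The keratinocyte markers (Krt5, Krt14, Krt1, Krt10, Krt15, Dsp, Perp) summed in whole sections to 1365 and 2003 CPM in the F592A sections, against 1506 and 439.6 CPM in the WT sections. Their part in the Ptgs1 values was not tested.

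Ptges was spread over more tissues. Connective tissue had 28.3 and 37.9 CPM in F592A 1 and F592A 2, against 26.0 and 18.2 CPM in WT 1 and WT 2, with a log2 fold change of 0.56 ± 0.23 (SE, adjusted p = 0.413, edgeR). Skin had 34.2 and 27.5 CPM in the F592A sections, against 24.5 and 15.96 CPM in the WT sections (log2 fold change 0.63 ± 0.30, SE, adjusted p = 0.646, edgeR). Muscle had 9.67 and 13.2 CPM in the F592A sections, against 9.13 and 13.5 CPM in the WT sections, which overlapped. With panel shares the groups did not overlap in muscle, at 9.736 and 11.16 CPM against 8.173 and 7.465 CPM. Ptges was the member with a gap between neighbours in the order of classes: nerve, with 26.5 and 20.3 CPM in WT 1 and WT 2, lay above every section's muscle, though the WT 2 value rests on 4 UMIs in 21 spots. With equal class weights the F592A sections still lay above the WT sections, at 22.5 and 28.3 CPM against 20.2 and 16.1 CPM.

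Over the named classes Ptgis had its highest mean over sections in connective tissue, with ranges that overlapped, while in F592A 1 vessel and blood spots (249.4 CPM) and the unnamed region (209.7 CPM) lay above it. Connective tissue had 163.1 and 271.1 CPM in F592A 1 and F592A 2, against 207.4 and 156.6 CPM in WT 1 and WT 2. The groups overlapped there, with a log2 fold change of 0.21 ± 0.27 (SE, adjusted p = 0.781, edgeR). With panel shares they did not, at 183.4 and 224.6 CPM in the F592A sections, against 117.7 and 162.7 CPM in the WT sections. Skin had 72.1 and 74.4 CPM in the F592A sections, against 31.7 and 58.5 CPM in the WT sections. Its log2 fold change in skin was 0.89 ± 0.30 (SE, adjusted p = 0.548, edgeR). Muscle had 67.2 and 58.6 CPM in the F592A sections, against 64.4 and 124.4 CPM in the WT sections, with a log2 fold change of -0.34 ± 0.32 (SE, adjusted p = 0.474, edgeR). The smooth muscle region led by Myh11 and Cnn1 had 347.6 CPM in F592A 1, the section where it held more than 20 spots.

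The difference between the groups was compared between muscle and skin, the classes with the most spots, in 1 fit with the section as block. The interaction for Ptgs2, muscle minus skin, was -1.03 ± 0.62 (SE) on the log2 scale, with an adjusted p of 0.435 in edgeR's test. For Ptgis it was -1.19 ± 0.31 (SE, unadjusted p = 0.00272, adjusted p = 0.0906, edgeR), and it was -0.07 where classes were drawn from panel shares. Of 14442 genes, 1 (0.00692%) was called, none of them a member, and 2492 had an unadjusted p under 0.05.

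**Figure D4:**
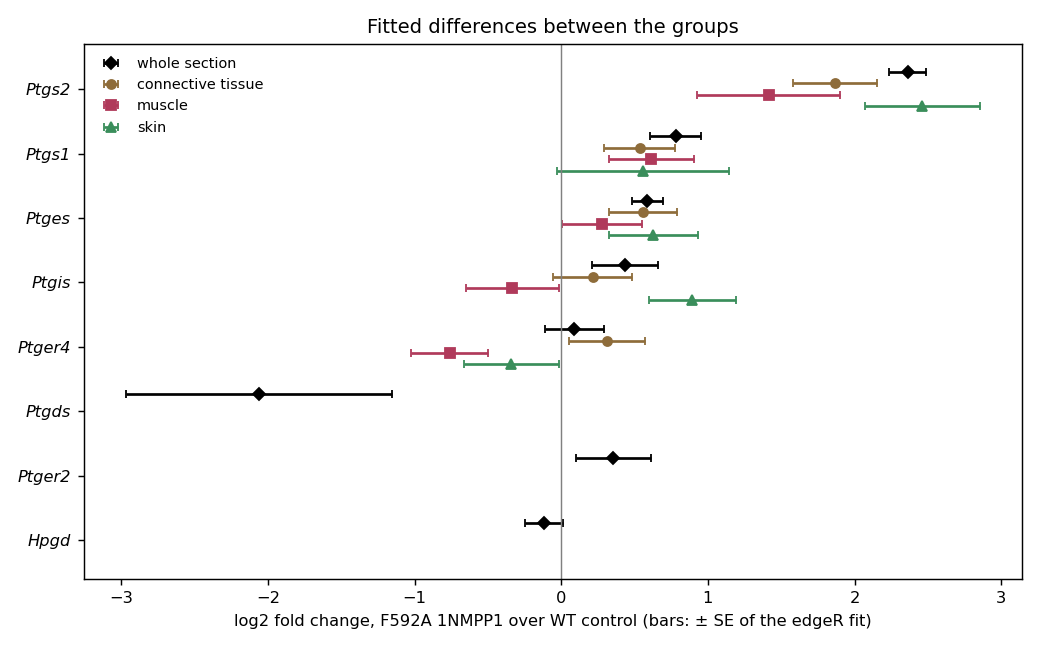
Log2 fold changes of F592A 1NMPP1 over WT control with their SE from the edgeR fits, for whole sections (all members) and for connective tissue, muscle and skin (5 members). Ptgs2 lies between 1.41 and 2.46 in all 4 fits, while Ptgis and Ptger4 lie on both sides of 0.

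Ptgds UMIs lay largely in hair in F592A 2 and WT 1. The region led by the hair keratins Krt35 and Krt71 held 3 of 8 and 14 of 23 Ptgds UMIs in F592A 1 and F592A 2, against 61 of 117 and 1 of 14 in WT 1 and WT 2. As levels these were 4.59 and 8.42 CPM in the F592A sections, against 35.7 and 2.25 CPM in the WT sections. With panel shares, 47 of the UMIs of WT 1 fell in myeloid spots and 13 in skin. The melanocyte markers Dct, Pmel, Mlana and Tyrp1 followed the same section: in skin they summed to 29.1 and 44.8 CPM in F592A 1 and F592A 2, against 275.1 CPM in WT 1 and 42.6 CPM in WT 2. The part of these cells in the Ptgds values was not tested.

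The receptors had no class of their own. Ptger4 had 28.3 and 18.7 CPM in connective tissue of F592A 1 and F592A 2, against 21.8 and 15.8 CPM in WT 1 and WT 2 (log2 fold change 0.31 ± 0.26, SE, adjusted p = 0.659, edgeR). In skin it had 16.8 and 18.2 CPM in the F592A sections, against 28.7 and 15.96 CPM in the WT sections. In muscle both F592A sections lay below both WT sections, with 7.77 and 5.83 CPM against 11.9 and 15.8 CPM, and the log2 fold change was -0.76 ± 0.26 (SE, adjusted p = 0.0839, edgeR). The mixed nerve-led spots had 35.1 CPM in WT 1 and 10.2 CPM in WT 2, the second from 2 UMIs. With panel shares the nerve spots of WT 1 had 11.8 CPM from 14 UMIs, and its myeloid spots had 35.1 CPM.

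Ptger2 stayed between 0.658 and 2.65 CPM in the connective tissue, muscle and skin of every section, and its values rest on 1 to 53 UMIs. Hpgd had 11.3 and 12.5 CPM in connective tissue of F592A 1 and F592A 2, against 11.9 and 13.3 CPM in WT 1 and WT 2. In skin Hpgd had 7.41 and 14.8 CPM in the F592A sections, against 10.6 and 9.31 CPM in the WT sections, and in muscle 8.72 and 7.95 CPM against 11.1 and 8.11 CPM. The groups overlapped for Hpgd in all 3 of these main classes. With panel shares both F592A sections lay below both WT sections in each, in skin from 4 to 16 UMIs a section. Hpgd then had 18.35 and 27.92 CPM in myeloid spots of the F592A sections, against 21.09 and 14.78 CPM in the WT sections. These values lay above those of connective tissue, muscle, skin, and cartilage and bone, which reached at most 13.29 CPM. Vessel and blood spots of F592A 2 had 29.12 CPM, and adipose spots of F592A 1 17.45 CPM, from 6 UMIs each.

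Spots with a Ptgs2 UMI were richer in some of the other members. Ptgis had 165.2 and 239.4 CPM in the Ptgs2 spots of F592A 1 and F592A 2, and 168.6 and 201.2 CPM in those of WT 1 and WT 2. In the other spots it had 128 and 117 CPM in the F592A sections, and 80.5 and 131.5 CPM in the WT sections. Ptges had 26.9 and 34.1 CPM in Ptgs2 spots of the F592A sections and 26.1 and 20.6 CPM in those of the WT sections. In the other spots Ptges had 20.1 and 22.3 CPM in the F592A sections and 16.1 and 15.8 CPM in the WT sections. Both genes were thus higher in Ptgs2 spots in all 4 sections. These levels join the spots of all tissue classes. Among the named classes Ptgs2 and Ptgis both had their highest mean in connective tissue, and the part of tissue was not tested.

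Ptgs1 had 21.1 and 24.7 CPM in Ptgs2 spots of the F592A sections and 12.9 and 23.0 CPM in those of the WT sections. In the other spots Ptgs1 had 34.5 and 31.0 CPM in the F592A sections and 13.3 and 16.8 CPM in the WT sections, so it was lower in Ptgs2 spots of both F592A sections, nearly level in WT 1 and higher in WT 2. Ptger4 had 27.2 and 20.02 CPM in Ptgs2 spots of the F592A sections and 26.8 and 15.3 CPM in those of the WT sections. In the other spots Ptger4 had 15.8 and 12.2 CPM in the F592A sections and 19.0 and 15.7 CPM in the WT sections, so WT 2 did not share the pattern. Ptgs2 spots were deeper, at a median of 18800 and 15090 UMIs in F592A 1 and F592A 2 and 32160 and 24800 UMIs in WT 1 and WT 2, against 4640 to 7416 UMIs in the other spots, and no test was made over spots.

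Among 11780 genes of at least 5 CPM, the genes most like each member over the 21 sums of section and class were found by Pearson's r of log2(CPM + 1), given as a description. For Ptgs2 these were Ccn1 (r = 0.84), a matricellular protein gene, Nfil3 (0.835), a transcriptional repressor, and Coq10b (0.808). For Ptgs1 they were Rab11fip1 (0.914), Abcc1 (0.904) and Klf4 (0.903), an epidermal transcription factor, and for Ptges they were Aph1a (0.834), Asns (0.803) and Tmem260 (0.802). For Ptgis they included Crip1 (0.895) and Trim47 (0.858). Ptger4 was most like the ribosomal protein genes Rpl34 (0.888), Rpl13a (0.88) and Rpl11 (0.876), and Hpgd like Fermt3 (0.943), Zfp952 (0.915) and Gfod2 (0.914). The sums share libraries and differ in depth, and Ptgds and Ptger2 were too low to be compared. Between members r was highest for Ptgs2 with Ptgis (0.682), and it was 0.113 for Ptgs2 with Ptgs1.

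The other genes of the pathway were read from 6 lists in whole sections, and 0 genes of any of them were called by edgeR. The counts at an unadjusted p under 0.05 below stand beside 1927 of 16347 over all genes in the same fit. Among the other prostanoid genes, 4 of 18 tested had an unadjusted p under 0.05, DESeq2 called 0, and the median log2 fold change was 0.11. The 4 of smallest p were Ptger3 (EP3), with 2.73 and 4.99 CPM in F592A 1 and F592A 2, against 1.91 and 1.66 CPM in WT 1 and WT 2, Hpgds (log2 fold change 0.42), the transporter Slco2a1 (0.34) and the thromboxane receptor Tbxa2r (-0.72). Their adjusted p ran from 0.322 to 0.397 in edgeR's test. Hpgds, also a prostaglandin D synthase gene, had 14.5 and 15.1 CPM in the F592A sections, against 10.1 and 11.7 CPM in the WT sections. It thus lay above Ptgds in every section.

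Of the 13 phospholipase A2 genes tested, 4 had an unadjusted p under 0.05 and the median log2 fold change was 0.17. Pla2g4a, the cytosolic enzyme that releases arachidonic acid, had 24.0 and 26.5 CPM in the F592A sections, against 17.2 and 15.8 CPM in the WT sections (log2 fold change 0.58 ± 0.10, SE, adjusted p = 0.19, edgeR). The next were Pla2g4f (1.24), Pla2g2f (1.56) and Pla2g3 (1.403), with adjusted p from 0.198 to 0.412 in edgeR's test. DESeq2 called 3 of them, Pla2g4a, Pla2g4f and Pla2g2f.

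The 12 lipoxygenase branch genes tested are lipoxygenases, other genes of leukotriene synthesis and 4 leukotriene receptors. Of these 12 genes, 6 had an unadjusted p under 0.05, and the median log2 fold change was 0.56. The 4 of smallest p were the epidermal genes Aloxe3 (1.33) and Alox12b (1.39), Ltc4s (0.84), the leukotriene C4 synthase, and Alox5ap (0.38), with adjusted p from 0.196 to 0.276 in edgeR's test. DESeq2 called 1, Aloxe3. The skin-led spots named above were more numerous in the F592A sections, and their part in these 2 epidermal genes was not tested.

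Of the 15 inducers and repressors of the inducible cyclooxygenase, 8 had an unadjusted p under 0.05, and the median log2 fold change was 0.32. Cebpd, a C/EBP transcription factor, had 109.9 and 98.0 CPM in F592A 1 and F592A 2, against 57.0 and 55.7 CPM in WT 1 and WT 2 (log2 fold change 0.86 ± 0.11, SE, adjusted p = 0.127, edgeR). Il1rn, the interleukin 1 receptor antagonist, followed at 0.84 (adjusted p = 0.207, edgeR), and DESeq2 called 4 of the list. The neutrophil markers summed to 37.8 and 35.1 CPM in the F592A sections, against 31.4 and 16.5 CPM in the WT sections, and the macrophage markers to 1342 and 1354 CPM, against 1221 and 1375 CPM. Over whole sections the Schwann cell markers summed to 363.6 and 357.3 CPM in the F592A sections, against 1596 and 697.1 CPM in the WT sections. The part of these cells in the differences was not tested.

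Immediate early genes, which many stimuli induce together with Ptgs2, had a median log2 fold change of 0.40, with 11 of 14 above 0 and 9 at an unadjusted p under 0.05. Ier3 had 70.8 and 72.7 CPM in the F592A sections, against 44.4 and 39.2 CPM in the WT sections (log2 fold change 0.76 ± 0.09, SE, adjusted p = 0.118, edgeR), and Atf3 followed at 1.07 (adjusted p = 0.127, edgeR). DESeq2 called 5 of the list. Of the 8 hypoxia response genes 3 had an unadjusted p under 0.05, with a median of 0.28, and the 2 of smallest p were Ankrd37 (1.61, adjusted p = 0.143, edgeR) and Vegfa (0.66, adjusted p = 0.174, edgeR). DESeq2 called these 2. Over all genes the median was 0.00, and 49.9% were above 0.

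**Figure D5:**
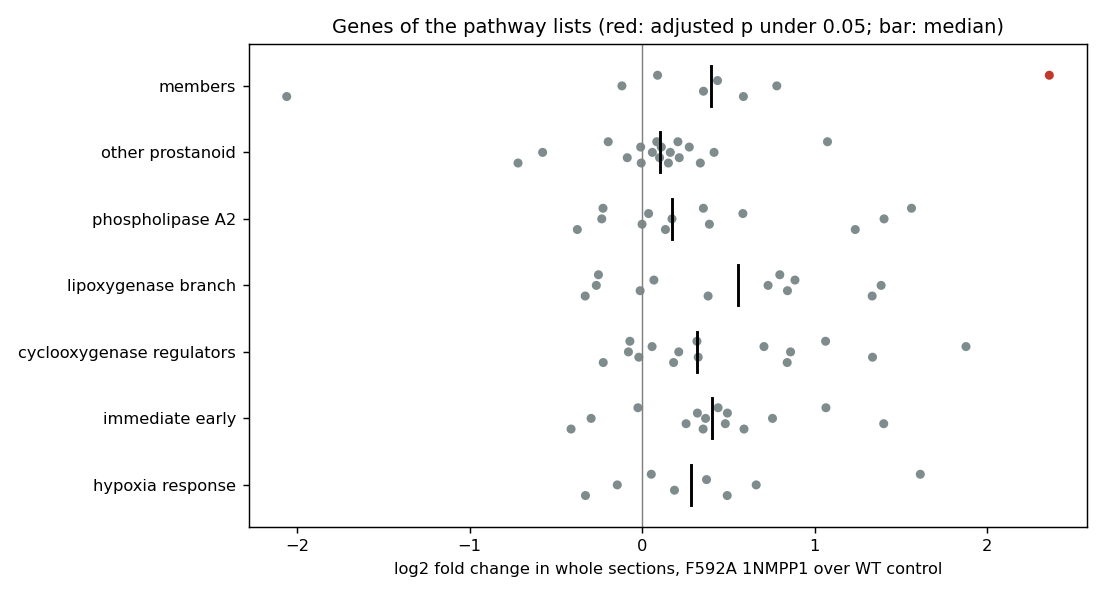
Each point is the log2 fold change of 1 tested gene in whole sections, F592A 1NMPP1 over WT control, for the 8 members and the 6 pathway lists; red marks an adjusted p under 0.05 in edgeR's test and black bars mark list medians. Ptgs2 at 2.36 is the 1 red point, and the list medians lie between 0.11 and 0.56.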

How the data were processed

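The authors' deposited matrices held raw UMI counts per gene and spot, written by Space Ranger 1.3.0 per the file headers, with build mm10 and Seurat 3 named in the submitters' processing notes. Spots of at least 500 UMIs were kept and clustered over all sections with scanpy 1.11.5 (Leiden resolution 0.6, the 8 genes left out of the variable genes). A region joined a tissue class when at least 3 of its 20 leading genes were in the class's panel, and 1 region matched none. Counts were summed per section, or per section and class, and tested with edgeR 4.0.16 (TMM, filterByExpr, quasi-likelihood test, Benjamini-Hochberg over all genes tested, threshold 0.05, classes with 50 or more spots in every section) on R 4.3.3, with DESeq2 1.42.0 as an alternative. Each SE was derived from the fold change and its F statistic. Levels in CPM are UMIs per 1000000 of the sum, with no TMM factor. The fits were first tested on simulated counts. Members and lists were chosen with earlier results of these data known, and named genes follow fixed ranks: all members, the 4 (2 for the last 3 lists) of smallest p and the 3 most alike, of which 1 is not reported here. RefSeq places Gm52550 and Gm13400 within Ptges and Gm52569 within Ptgis, and whether the counting used strand is not given in the sources used here. Promoters came from RefSeq. The image scale factors were not used.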

Additional observations from a re-analysis of the deposited data

How the results depend on the processing

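In whole sections 13 genes were called. The count was 5 with RLE size factors, 418 with DESeq2, 546 with no filter on low counts, 3 without muscle, mitochondrial and haemoglobin genes, 7 without skin-led spots, 6 without the unnamed region (chosen after seeing the data) and 0 to 390 with 1 section left out. With the replicate block it was 7, and Ptgs2 had an adjusted p of 0.0583 in edgeR's test. Same-numbered sections deviated with a correlation of -0.135 over genes. With 2 sections per group this value is the same for both numbers by construction, so it cannot decide whether the numbers pair the sections. The crossed pairing, added after seeing the data, called 189. In connective tissue, where 0 genes were called, the count was 252 with DESeq2, 1170 with no filter, 23 with the replicate block, 16 at Leiden resolution 1.0, 7 with panel shares, 15 in the Ecm1 region alone (added after seeing the data) and 0 to 813 with 1 section left out. In muscle, where 3281 were called, it was 687 with every spot kept, 1230 at resolution 1.0, 26 with panel shares and 0 to 2814 with 1 section left out. In skin, where 0 were called, it was 61 with DESeq2, 332 with no filter, 1 with panel shares and 1 to 35 with 1 section left out. For the interaction, where 1 was called, it was 87 with RLE size factors, which moved the median of all genes to 0.121, 0 with panel shares and 2 to 753 with 1 section left out.

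Of 327 member values under alternatives, 13 changed sign, and Ptgs2 was not among these. Ptger4 in whole sections was -0.023 with equal class weights and -0.19 to 0.33 with 1 section left out. Ptgis in muscle was 0.17 at resolution 1.0, 0.043 with panel shares and -0.78 to 0.21 with 1 section left out. With 1 section left out, the log2 fold change ran from -0.19 to 0.54 for Ptgis and -0.032 to 0.58 for Ptger4 in connective tissue, from -0.039 to 0.56 for Ptges in muscle, and from -0.21 to 1.62 for Ptgs1 and -0.60 to 0.25 for Ptger4 in skin. The causes were not tested. In such fits a lone section is assumed to vary like the other group. Low counts limit Ptgds, Ptger2 and Ptgs2 in WT skin.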
